A study of Mus musculus with 6 samples.

Results

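Wound T cells were taken from 3 droplet libraries of digested mouse wounds, as the kept cells with unique molecular identifiers (UMIs) of at least 2 of the 3 genes Cd3e, Cd3d and Cd3g and fewer than 5 UMIs of Lyz2, a gene of macrophages and neutrophils. The Cd3 genes encode the signalling chains of the T cell receptor. This rule found 419 of 11032 kept wound cells, 3.80% (95% interval 3.45 to 4.17). T cells recognise antigen through a receptor of alpha and beta chains or of gamma and delta chains. They are grouped by what they make, such as type 17 cells that secrete interleukin 17, cytotoxic cells that carry granzymes, and regulatory cells that restrain other immune cells. In the skin, gamma-delta and regulatory T cells are known for roles in defence at the barrier and in repair.

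The study placed collagen-pullulan hydrogels on splinted full-thickness excisional wounds of mice and asked how dendritic cells (DCs) that lack Ndrg2 change healing. The hydrogel was common to all groups and was either left without cells (blank hydrogel) or seeded with bone marrow-derived DCs. The seeded cells were control DCs or DCs in which Ndrg2 had been targeted by nucleofection of Cas9 ribonucleoprotein (Ndrg2-KO DC). Each condition gave 1 library of whole digested wound tissue, so differences between conditions stand without replicates and carry no p-value. The labels call the control DCs untreated, while the methods describe the same Cas9 protocol with guides that target no gene, so the part of the editing procedure itself cannot be told apart from the label alone. The methods name wild-type C57BL/6J and diabetic db/db mice of both sexes, and the labels of these libraries give neither strain, age, sex nor the number of animals pooled. The design text of the series speaks of GFP-positive cells from wounds of joined animals, while the sample labels describe digested wounds, and eGFP had 0, 1 and 0 UMIs in the deposited tables of the control DC, Ndrg2-KO DC and blank hydrogel wounds. The knockout was made in the seeded DCs and not in the T cells, whose counts therefore cannot check that label. Xist, expressed from the inactive X chromosome, had a UMI in 95%, 88.4% and 90.5% of the T cells of the control DC, Ndrg2-KO DC and blank hydrogel wounds, and the 4 Y-linked genes together had 1 UMI in the T cells of the control DC wound and 0 in the other libraries. Xist, the 1 of these 5 genes with at least 50 UMIs, differed less than 2-fold in each comparison.

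The deposited tables held 2711 barcodes for the control DC wound, 7538 for the Ndrg2-KO DC wound and 4027 for the blank hydrogel wound. With at least 300 genes, fewer than 100000 UMIs and less than 10% mitochondrial UMIs, 1948, 5681 and 3403 cells were kept, with 29675507, 49240341 and 34905741 UMIs. The T cells among them held 1091015, 1410433 and 671511 UMIs, with medians of 6896, 5145 and 6642 UMIs per cell. Levels are given as UMIs summed over the T cells of a library and scaled to 1000000 UMIs of those cells (CPM), so that 1 UMI equals 0.917, 0.709 and 1.49 CPM in this order of libraries. All intervals are exact 95% intervals and cover counting error only. A count of 0 allows up to 3 UMIs, or 2.75, 2.13 and 4.47 CPM. Pairs of libraries shared few barcodes, namely 3 between the control and Ndrg2-KO DC wounds and 5 in each pair with the blank hydrogel wound. Of these, 1 barcode was a T cell in either library and 0 were T cells in both.

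The cells carried the T cell label well by genes that the rule did not use. Trbc2, a constant gene of the receptor beta chain that is nearly identical to Trbc1 and therefore uncertain in its split, had a UMI in 95.8%, 92.1% and 92.9% of T cells. In fibroblast-like cells, which should lack it, the shares were 0.417%, 0.652% and 0% at far higher median depths of 29454, 26358 and 27768 UMIs. Of the markers given for the cells, the costimulatory receptor Icos was counted in 80.8%, 80.9% and 82.1% of T cells and the chemokine receptor Cxcr6 in 69.2%, 65.1% and 52.4%. Their levels were 629 (583 to 678), 611 (571 to 653) and 733 (669 to 800.4) CPM for Icos and 417 (379.6 to 457), 344 (314 to 376) and 328 (286 to 374) CPM for Cxcr6. In fibroblast-like cells, Icos had a UMI in 0.417%, 1.30% and 0.932% and Cxcr6 in 0.417%, 0% and 0.311%. NK-like cells were chosen by natural killer (NK) cell genes and had no Cd3 UMI. Trbc2 had a UMI in 25%, 50% and 40% of them, Icos in 31.2%, 27.8% and 25% and Cxcr6 in 0%. Trbc2 and Icos thus set the T cells less apart from NK-like than from fibroblast-like cells. Il17a, the third such marker, was found in only 2.50%, 0.930% and 4.76% of the T cells, so that it marks a small minority of them.

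Just inside the threshold, the T cells with UMIs of 2 of the Cd3 genes numbered 23, 64 and 22, and 87%, 85.9% and 95.5% of them held Trbc2. Those with all 3 genes numbered 97, 151 and 62, of which 97.9%, 94.7% and 91.9% held Trbc2. Just outside it, 14, 33 and 30 kept cells had 1 Cd3 gene and fewer than 5 Lyz2 UMIs, with Trbc2 in 35.7%, 15.2% and 26.7%. A further 3, 20 and 7 cells had at least 2 Cd3 genes and at least 5 Lyz2 UMIs. These were deep, at medians of 20056, 15838 and 26955 UMIs, and 33.3%, 85% and 85.7% of them held the neutrophil gene S100a8. T cell genes were also frequent in them, with Trbc2 in 33.3%, 90% and 71.4% and Icos in 100%, 90% and 85.7%.

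T cells made up 6.16% (5.13 to 7.32) of kept cells in the control DC wound, 3.78% (3.30 to 4.31) in the Ndrg2-KO DC wound and 2.47% (1.97 to 3.05) in the blank hydrogel wound. The intervals did not overlap. The share depends on how many other cells were recovered, and the kept cells of the control DC wound were the deepest, with a median of 10795 UMIs against 4415 and 5603. The part of recovery and depth in this order was not tested.

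Against all other kept wound cells, the 20 genes with the highest ratio of CPM were almost all known parts of T cells. Beside the 3 Cd3 genes they comprised the coreceptor genes Cd8b1, with a log2 ratio of 8.75, and Cd8a at 8.05, the receptor genes Tcrg-C1, Trbc2 and Trac, and the signalling or adaptor genes Cd5, Cd6, Sit1, Trat1 and Themis. Surface and signalling molecules of T cell help and homing followed, among them Cd40lg, the ligand that helps B cells and DCs, at 7.67, Cxcr6 at 7.59, the skin-homing receptor Ccr4 at 7.50, Icos at 7.14 and the inhibitory receptor Pdcd1 at 7.14. Cd163l1, a scavenger receptor gene of interleukin 17-producing gamma-delta T cells, stood at 7.93, and Izumo1r, the folate receptor 4 of regulatory and activated T cells, at 8.25. These ratios describe cells that were chosen by Cd3 genes.

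Between libraries, the T cells differed in a limited part of the counted transcriptome, and the leading genes were of several kinds. A gene entered a comparison when either library held at least 50 of its UMIs, and it was counted when its CPM differed at least 2-fold. Scarce genes could thus enter only through the library where they were higher, which favours a count past 2-fold. In the Ndrg2-KO DC wound against the control DC wound, 130 of 3524 genes were higher (3.69%) and 86 lower (2.44%), around a median log2 ratio of 0.08. In the blank hydrogel wound against the control DC wound, 58 of 2732 were higher (2.12%) and 172 lower (6.30%), around a median of 0.07. In the Ndrg2-KO DC wound against the blank hydrogel wound, 251 of 3444 were higher (7.29%) and 52 lower (1.51%), around a median of 0.00. Many of these genes rested on 1 cell: over 50% of the UMIs of the higher library lay in 1 cell for 27 and 39 genes of the first comparison, 9 and 59 of the second and 67 and 4 of the third, in the same order. These comparisons share libraries and are not independent.

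Genes known from other cell types were among the largest differences. The 8 largest rises in the Ndrg2-KO DC against the control DC wound were Jchain, Igkc and Ighm, which encode parts of antibodies, and S100a8, S100a9, Retnlg, G0s2 and Clec4e, which are abundant in neutrophils or other myeloid cells. The 8 largest falls were Il22, Il17a, Il17f, H19, Nos2, Cxcl5, Saa3 and Timp1, of which Timp1 and Saa3 are abundant in activated stromal cells. Against the control DC wound, the blank hydrogel wound had the largest rises in Il4, S100a8, S100a9, Spp1, Tcrg-C1, Trdv4, Ccl4 and Cd163l1, and the largest falls in Timp1, Saa3, Lox, C4b, Prg4, Il22, Rarres2 and Serping1, most of them stromal genes. Between the Ndrg2-KO DC and blank hydrogel wounds, the haemoglobin genes Hba-a1, Hba-a2, Hbb-bs and Hbb-bt, the antibody genes Igkc and Jchain, G0s2 and Cpxm1 led the rises of the former. Hba-a1 and Hba-a2 are near-identical copies and uncertain. The falls were led by the T cell genes Il17a, Trdv4, Tcrg-C1, Cd163l1, Il4 and Trdc, with Cenpf and Hist1h1b, genes of dividing cells.

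The marker lists of other cell types showed where this RNA lay. The 5 neutrophil markers summed to 28.4, 3633 and 1200 CPM in the T cells of the control DC, Ndrg2-KO DC and blank hydrogel wounds, with 4, 5 and 5 detected. S100a9 was the most abundant, Csf3r was at 0 in the control DC wound, and 10 Ndrg2-KO DC cells with at least 20 such UMIs held 96.2% of that sum. All 5 fibroblast markers were detected in each library and summed to 7228, 4378 and 210.0 CPM, led by Col1a1 in the control DC wound and by Col3a1 in the others, and 4 control DC cells held 97.2% of the sum and 5 Ndrg2-KO DC cells 96.2%. The 4 erythroid markers, all detected, summed to 1705, 12402 and 74.5 CPM, led by Hbb-bs. Where these sums were high, a few cells thus carried most of the RNA, with 92.4% of the blank hydrogel neutrophil sum in 2 cells and 95.4% and 98.3% of the control DC and Ndrg2-KO DC erythroid sums in 1 and 6 cells. No cell reached 20 such UMIs for the neutrophil markers of the control DC wound or the fibroblast and erythroid markers of the blank hydrogel wound, which lay in 27, 59 and 38 cells.

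Plasma cell genes in the Ndrg2-KO DC wound and dendritic cell markers in each wound also lay mostly in few cells. The 3 plasma cell genes Igkc, Jchain and Mzb1, chosen after their values were seen, summed to 22.9, 4897 and 38.7 CPM, and 2 Ndrg2-KO DC cells held 99.5% of the sum there. Dendritic cell markers were detected for 7, 7 and 6 of 7 genes at 729, 1016 and 1257 CPM, led by Cd74, with Xcr1 at 0 in the blank hydrogel wound, and 3, 6 and 2 cells held 93.8%, 93.5% and 94.5% of the sums. Macrophage and monocyte markers, Lyz2 of the rule included, gave 75.2, 297 and 86.4 CPM from 6, 7 and 7 of 7 genes, with Fcgr1 at 0 in the control DC wound and led by Lyz2, Cd14 and Lyz2. Endothelial markers gave 67.8, 99.3 and 37.2 CPM from 4, 4 and 2 of 4 genes, led by Pecam1, with Cdh5 and Plvap at 0 in the blank hydrogel wound. Mast cell markers were at 0 in the control DC and blank hydrogel wounds and at 116 CPM in 1 cell of the Ndrg2-KO DC wound, led by Cma1. B cell markers stood at 0, 9.93 and 5.96 CPM from 0, 3 and 1 of 4 genes, led by Cd79a and Cd79b, with Cd79a and Ms4a1 at 0 in the blank hydrogel wound, and keratinocyte markers at 8.25, 5.67 and 4.47 CPM from 2, 4 and 2 of 5 genes, with Krt1 at 0 throughout and led by Krtdap, Krt14 and Krt5.

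T cells with at least 20 UMIs of another cell type's markers numbered 10, 25 and 4, which is 8.33%, 11.6% and 4.76%. Without them, an alternative chosen after the data were seen, the Ndrg2-KO DC against control DC comparison gave 45 genes higher and 30 lower, the blank hydrogel against control DC comparison 51 lower, and the Ndrg2-KO DC against blank hydrogel comparison 76 higher. The count of genes higher in the blank hydrogel against the control DC wound stayed within 1.5 times. So did the count of genes lower in the Ndrg2-KO DC against the blank hydrogel wound. Of the genes with at least 50 UMIs, the 3 neutrophil, 4 erythroid and 1 mast cell genes were all at least 2-fold higher in the Ndrg2-KO DC against the control DC wound, beside 1 of 2 macrophage and 1 of 2 endothelial genes, and 2 of 5 fibroblast genes were lower. The blank hydrogel wound had all 5 fibroblast and 3 erythroid genes lower and 2 neutrophil genes and the antigen-presentation gene H2-Ab1 higher than the control DC wound. No B cell or keratinocyte gene reached 50 UMIs. Between the Ndrg2-KO DC and blank hydrogel wounds, the 3 neutrophil, 5 fibroblast, 4 erythroid and 1 mast cell genes were all higher in the former, beside 1 of 2 macrophage, 1 of 2 endothelial and 0 of 3 dendritic cell genes. Median log2 ratios in the 3 comparisons were 6.76, 5.52 and 1.74 for neutrophil, -0.87, -4.93 and 4.33 for fibroblast and 0.41, 0.64 and -0.23 for dendritic cell genes. S100a8 and S100a9 had 10 and 19 UMIs in the control DC wound, and fibroblast markers at most 40 each in the blank hydrogel wound. Such genes entered only through the library where they were high, so these counts and medians were largely set by the filter. The part of T cells holding RNA of another type in the other results was not tested, beyond the values given without them.

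The list of T cell receptor and signalling genes, which leaves out the gamma and delta chains, held at most 1 gene past 2-fold in a comparison. Over all counted genes, 3.69% were higher and 2.44% lower in the Ndrg2-KO DC against the control DC wound. In the blank hydrogel against the control DC wound these shares were 2.12% and 6.30%. In the Ndrg2-KO DC against the blank hydrogel wound they were 7.29% and 1.51%. For 15 genes the counts lie near these shares, so no trait of the list is read. All 15 receptor and signalling genes, among them the kinase gene Lck and the adaptor gene Lat, reached 50 UMIs in each comparison. None differed 2-fold between the Ndrg2-KO DC or blank hydrogel wound and the control DC wound, with median log2 ratios of 0.07 and -0.08 beside 0.08 and 0.07 over all genes. Trbc1, uncertain beside Trbc2, was the 1 gene past 2-fold in the Ndrg2-KO DC against the blank hydrogel wound, at a log2 ratio of 1.03 (0.76 to 1.31), where the list's median was 0.18.

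To compare shares of cells across depths, each cell was set to 1000 UMIs, and the value given is the expected share over all possible draws of 1000 UMIs without replacement. Of the T cells, 1 of the Ndrg2-KO DC wound was shallower and was left out. A single random draw had been planned, and the expectation took its place after the draw's values were seen, because 1 draw placed the control DC cytotoxic share at 0.833% while 100 draws gave 1 to 12 cells of 120 with a median of 6. The shares of that first draw are printed beside the expected ones. Gates overlap and are ranges of marker counts, not cell types.

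CD4 T cells, which help other immune cells, and CD8 T cells, which kill infected or altered cells, were told apart by their coreceptor genes. A UMI of Cd4 was found in 62, 100 and 34 T cells of the control DC, Ndrg2-KO DC and blank hydrogel wounds, which is 51.7%, 46.5% and 40.5%, with 0.417%, 0.217% and 0.311% in fibroblast-like cells. At 1000 UMIs per cell the shares were 15.7% (9.81 to 23.6), 15.1% (10.5 to 20.4) and 12% (5.86 to 20.8), which overlap widely, and the first draw gave 17.5%, 15% and 10.7%. A UMI of Cd8a or Cd8b1 was found in 28, 64 and 8 T cells, which is 23.3%, 29.8% and 9.52%, with 0.417%, 0% and 0% in fibroblast-like cells. The shares at equal depth were 9.65% (5.27 to 16.8), 15% (10.5 to 20.4) and 5.04% (1.31 to 11.7). The first draw gave 5% (1.86 to 10.6), 15.9% (11.3 to 21.5) and 1.19% (0.0301 to 6.46), and its 6 control DC and 1 blank hydrogel cells equal the fewest of 100 draws. The CD8 share was thus lowest in the blank hydrogel wound by both measures. It overlapped that of the Ndrg2-KO DC wound in the expected shares and lay apart from it in the first draw.

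The levels ran the same way. Cd8b1 stood at 78.8, 137 and 44.7 CPM and Cd8a at 38.5, 53.9 and 28.3 CPM, while Cd4 stood at 162, 130.5 and 110.2 CPM. Of the coreceptor list, Cd8b1 was the 1 gene past 2-fold, in the Ndrg2-KO DC against the blank hydrogel wound, with a log2 ratio of 1.61 (1.05 to 2.22). The list's medians were 0.49, -0.69 and 0.93 for the Ndrg2-KO DC against control DC, blank hydrogel against control DC and Ndrg2-KO DC against blank hydrogel comparisons, from 3, 2 and 3 genes with enough UMIs. Only 3 of the 419 T cells held UMIs of both Cd4 and a Cd8 gene. No coreceptor and no gamma-delta gate was met by 28, 52 and 29 T cells.

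The type 17 cytokine genes Il17a, Il17f and Il22 were carried by very few T cells, and their levels rested on single cells. Il17a (ENSMUSG00000025929), which encodes the cytokine interleukin 17A, had 302 UMIs in 3 cells of the control DC wound, 3 UMIs in 2 cells of the Ndrg2-KO DC wound and 170 UMIs in 4 cells of the blank hydrogel wound. That is 277 (246 to 309.9), 2.13 (0.439 to 6.22) and 253 (217 to 294) CPM, and log2 ratios of -7.02 (-9.31 to -5.46) and -6.90 (-9.19 to -5.32) for the Ndrg2-KO DC wound against the control DC and blank hydrogel wounds. One cell held 296 of the 302 control DC UMIs and another 138 of the 170 blank hydrogel UMIs. Without the cell with the most Il17a UMIs in each library, the control DC level was 5.58 CPM and the blank hydrogel level 48.3 CPM. The level was 4.58 CPM in the control DC wound when no Lyz2 UMI was allowed, and 4.55 and 1.58 CPM in the control DC and blank hydrogel wounds without the cells of each library with the highest 6% of Scrublet doublet scores. The cytokine was thus strong in 1 or 2 cells of these libraries and barely seen in the rest, and the difference from the Ndrg2-KO DC wound is one of single cells.

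The cell with the most Il17a in the control DC wound carried a broad set of type 17 cytokines. Beside 296 UMIs of Il17a among its 16344 UMIs, it held 132 of Il17f, the close relative of Il17a, 342 of Il22, which acts on epithelial cells, and 13 of Csf2, a growth factor of myeloid cells. It had 8 UMIs of Trbc2, 2 of Trac and 0 of Trdc, the constant gene of the delta chain, and met the CD8 gate with 1 UMI of Cd8b1 and 0 of Cd8a. Next in that library was a cell with 4 UMIs of Il17a and 27 of Trdc, 8 of the delta variable gene Trdv4 and 6 of Cd163l1. The leading cell of the blank hydrogel wound held 138 UMIs of Il17a, 10 of Il17f, 3 of Cd4 and 7 of Trbc1 and none of Trdc, and the others held 28, 3 and 1 UMIs of Il17a. Of the latter, the cells with 3 and 1 UMIs also held 8 and 14 UMIs of Trdc, and the former 161 UMIs of S100a8. T cells with and without delta chain genes thus both carried Il17a, and the highest counts among T cells lay in cells without a Trdc UMI.

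Most Il17a of the Ndrg2-KO DC wound lay outside the chosen cells. A kept cell with 9512 UMIs held 415 UMIs of Il17a, 391 of Il22 and 43 of Il17f, with 8 of Trdc, 11 of Thy1, a surface gene of T cells and innate lymphoid cells, and 2 of the receptor gene Il23r. It had no UMI of a Cd3 gene or of Trbc2. Kept cells without a Cd3 UMI held 416 Il17a UMIs in 2 of 5393 cells, which is 99.3% of the library's Il17a UMIs, and T cells held 0.716%. In the control DC and blank hydrogel wounds, T cells held 99.3% and 95%. The Ndrg2-KO DC wound as a whole was therefore not without Il17a, and the low level applies to cells with Cd3 UMIs. Fibroblast-like cells held an Il17a UMI in 0.208%, 0% and 0% and neutrophil-like cells in 0%, 0.0448% and 0.147%, at median depths of 3526, 3190 and 3526 UMIs for the latter.

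**Figure D1:**
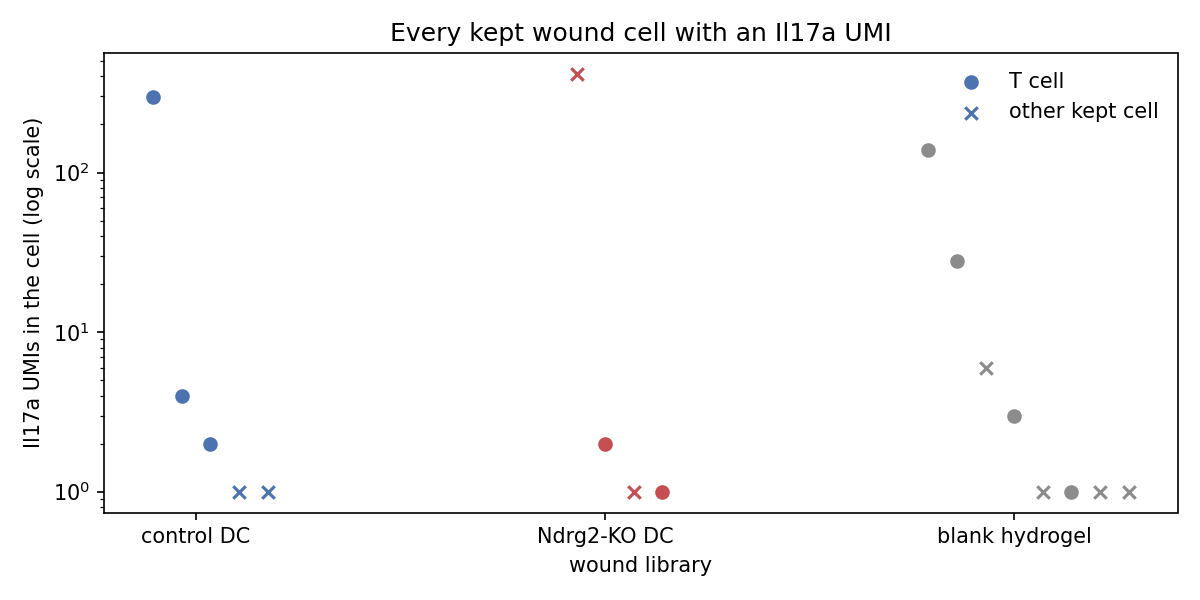
Il17a UMIs on a log axis in each kept wound cell that held any, by wound library, with filled circles for T cells and crosses for other kept cells. The highest T cells hold 296 UMIs in the control DC wound and 138 in the blank hydrogel wound, and the highest cell of the Ndrg2-KO DC wound, with 415, is not a T cell by the rule.

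Il17f and Il22 in the T cells were highest in the control DC wound, where the cell with the most Il17a held nearly all of both. Il17f had 133, 2 and 11 UMIs, or 122, 1.42 and 16.4 CPM, and 132 of the 133 lay in the cell with the most Il17a. Il22 had 343, 0 and 2 UMIs, 342 of them in that same cell, so that its level of 314 CPM in the control DC wound was at least 148-fold higher than in the Ndrg2-KO DC wound. All Il17f of the blank hydrogel T cells lay in cells with Il17a, though T cells held only 35.5% of the Il17f UMIs of that wound's kept cells, against 97.8% in the control DC and 4.17% in the Ndrg2-KO DC wound, while Il22, at 2.98 CPM there, lay in 1 cell without an Il17a UMI. By the lowest log2 ratio over the libraries between T cells with and without an Il17a UMI, the 8 genes most like Il17a were Il17f, Tmem176a, Cxcr4, Aprt, Ywhae, Capg, Reep5 and Btg1. Tmem176a, a membrane protein gene, had log2 ratios of 2.35, 3.08 and 1.71, and the chemokine receptor gene Cxcr4 had 2.51, 1.32 and 1.25. These values rest on 3, 2 and 4 cells with an Il17a UMI and describe those cells alone.

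Il17a and Il17f lie next to each other on chromosome 1, at 20730905 to 20734496 on the plus strand and 20777146 to 20790617 on the minus strand of GRCm38. The highest control DC counts of both lay in the same cell.

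Other type 17 genes differed in which wound led, and several were highest in the blank hydrogel wound. Il23r, the receptor gene for the cytokine that sustains type 17 cells, stood at 4.58, 2.13 and 23.8 CPM in 4, 2 and 8 cells, and the chemokine receptor gene Ccr6 at 10.1, 10.6 and 26.8 CPM in 5, 7 and 10 cells. Maf, a transcription factor gene of type 17 and regulatory cells, stood at 142, 209 and 308 CPM, and Rora at 406, 308 and 567 CPM. Tmem176a and Tmem176b stood at 57.7, 56 and 228 CPM and at 39.4, 58.8 and 141 CPM. By contrast, Il18r1, Cxcr6 and Il1r1 were highest in the control DC wound. Il18r1 stood at 159, 115 and 118 CPM and Cxcr6 at 417, 344 and 328 CPM, and Il1r1, a receptor gene for interleukin 1, had 24, 24 and 6 UMIs, or 22, 17 and 8.94 CPM.

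Of the 16 genes of the type 17 list, 9 had enough UMIs in the Ndrg2-KO DC against the control DC wound, with 0 higher and 3 lower, namely Il17a, Il17f and Il22, and a median log2 ratio of -0.40 beside 0.08 over all genes. In the blank hydrogel against the control DC wound, 4 of 10 were higher, namely Maf, Cd163l1, Tmem176a and Tmem176b, and Il17f and Il22 were lower, with a median of 0.18. For the Ndrg2-KO DC against the blank hydrogel wound, 0 of 8 were higher and 4 lower, namely Il17a, Cd163l1, Tmem176a and Tmem176b, with a median of -1.07 beside 0.00. The shares of all counted genes past 2-fold, higher and lower, were 3.69% and 2.44%, 2.12% and 6.30%, and 7.29% and 1.51% in this order. The gate of at least 2 type 17 genes, Il17a, Il17f, Il23r, Ccr6 and Cd163l1 among them, held 5, 2 and 11 T cells, or 4.17%, 0.930% and 13.1%, and 0 fibroblast-like cells in each library. At 1000 UMIs per cell the shares were 1.30% (0.202 to 5.89), 0.162% (0 to 1.71) and 2.68% (0.290 to 8.34), and the first draw gave 0.833%, 0% and 4.76%. At equal depth the intervals, taken from rounded expected counts of very few cells, overlap. Overlap is no test of a difference, so nothing is read from it there. By all UMIs the interval of the blank hydrogel wound, 6.72 to 22.2, lay above that of the Ndrg2-KO DC wound, 0.113 to 3.32, and overlapped that of the control DC wound, 1.37 to 9.46. Of the 18 cells of this gate, 10 also met the gamma-delta gate.

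The gamma-delta receptor genes Trdc, Trdv4 and Tcrg-C1 were highest in the blank hydrogel wound. Trdc stood at 43.1, 9.93 and 337 CPM in 4, 3 and 12 T cells, Trdv4 at 7.33, 0 and 149 CPM in 1, 0 and 10 cells, and Tcrg-C1, a constant gene of the gamma chain, at 3.67, 1.42 and 78.9 CPM in 4, 2 and 14 cells. The blank hydrogel against the control DC wound gave log2 ratios of 2.97 (2.51 to 3.45) for Trdc, 4.34 (3.31 to 5.59) for Trdv4 and 4.43 (2.99 to 6.36) for Tcrg-C1. All 3 genes with enough UMIs of the list's 9 were higher there, with a median of 4.34, and all 3 were lower in the Ndrg2-KO DC than in the blank hydrogel wound, with a median of -5.80. Trdv4 was at least 70-fold lower in the latter comparison. None of the 9 genes had enough UMIs in the Ndrg2-KO DC against the control DC wound. The Tcrg-C genes are near-identical and uncertain among themselves, and Tcrg-V5 and Sox13 were at 0 in every library.

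The gate of at least 2 of Trdc, Trdv4, Tcrg-C1, Tcrg-C2 and Tcrg-C4 held 2, 2 and 13 T cells, or 1.67%, 0.930% and 15.5%. At 1000 UMIs per cell the shares were 0.555% (0.0211 to 4.56), 0.179% (0 to 1.71) and 8.76% (3.42 to 16.4), and the first draw gave 0.833%, 0% and 7.14%. No fibroblast-like cell met the gate in any library, and 1 of 16, 0 of 18 and 1 of 20 NK-like cells did. Single genes are less certain as marks. Trdc had a UMI in 5.21%, 1.52% and 6.52% of fibroblast-like cells and 12.5%, 16.7% and 30% of NK-like cells, and Trdv4 in 37.5%, 16.7% and 25% of NK-like cells, at 69.7, 51 and 26 CPM there. The share in the blank hydrogel wound lay above that of the Ndrg2-KO DC wound beyond counting error by all UMIs and at 1000 UMIs. By all UMIs, at 15.5% (8.51 to 25), it also lay above the 1.67% (0.202 to 5.89) of the control DC wound, while at 1000 UMIs these intervals overlap. All of the gate's 17 cells lacked a UMI of Cd4, Cd8a, Cd8b1 and Foxp3.

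The 13 gamma-delta gate cells of the blank hydrogel wound carried features of interleukin 17-committed cells, largely without the cytokine. Cd163l1 had a UMI in 11 of them and in 1 of the other 71 T cells, at 903 and 1.78 CPM, and Blk, a kinase gene of such cells, in 9 and in 0. Cxcr6 had a UMI in 11 of 13 and 33 of 71 cells, at 921 and 210.4 CPM, and Pdcd1 in 11 of 13 and 27 of 71, at 659 and 152 CPM. Il17a had a UMI in 2 cells of each class. The costimulatory receptor gene Cd28 was found in 1 of the 13 cells and 49 of the others, Cd5 in 1 and 30, and Ctla4 in 0 and 39, while Trac was found in 6 and 56 at 54.2 and 378 CPM. The beta chain genes did not follow Trac, with Trbc2 in 13 of 13 and 65 of 71 cells, at 678 and 952 CPM, and Trbc1 in 7 and 28, at 407 and 166 CPM. The depths were similar, with medians of 7103 and 6493 UMIs inside and outside the gate. These cells were thus rich in Cd163l1, Blk and Cxcr6 and poor in Cd28, Cd5, Ctla4 and Trac, but not in beta chain RNA.

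Of the 17 cytotoxic genes, Gzma, Gzmb, Prf1, Nkg7, Ccl5, Klrd1, Klrk1, Ctsw and Ifng were highest in the Ndrg2-KO DC wound by CPM, and the others in one of the other wounds. Gzmb, which encodes the death-inducing protease granzyme B, stood at 131 (110.5 to 154), 481 (445 to 518) and 214 (181 to 252) CPM, in 26, 75 and 25 T cells. The log2 ratios of the Ndrg2-KO DC wound were 1.87 (1.61 to 2.15) against the control DC wound and 1.16 (0.90 to 1.43) against the blank hydrogel wound. Without the cell with the most Gzmb UMIs in each library, an alternative chosen after the data were seen, the levels were 88.6, 443 and 142 CPM. Gzma, the gene of granzyme A, stood at 4.58, 227 and 52.1 CPM in 3, 18 and 3 cells, and 1 cell held 30 of the 35 blank hydrogel UMIs. Fibroblast-like cells held Gzmb in 0.417%, 0.435% and 0% and Gzma in 0.208%, 0% and 0%. NK-like cells were above the T cells in both, with Gzmb at 828, 622 and 447 CPM and Gzma at 5623, 6933 and 4022 CPM in 93.8%, 94.4% and 90% of them. The levels of the granzymes differed beyond the counting error of UMIs, which treats the UMIs of 1 cell as independent. The shares of T cells with a UMI were 21.7% (14.7 to 30.1), 34.9% (28.5 to 41.7) and 29.8% (20.3 to 40.7) for Gzmb and 2.50% (0.519 to 7.13), 8.37% (5.04 to 12.9) and 3.57% (0.743 to 10.1) for Gzma, and these intervals overlap.

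Other genes of killer cell granules and receptors did not all share this order. Nkg7, a granule membrane protein gene, stood at 260.3, 311 and 118 CPM in 65, 100 and 16 cells, so that the blank hydrogel wound was lower than the control DC wound by a log2 ratio of -1.15 (-1.52 to -0.78). Ccl5, a chemokine gene of effector T cells, stood at 759.8, 933 and 558 CPM, and the protease gene Ctsw at 129, 169 and 127 CPM. The receptor genes Klrd1 and Klrk1 stood at 110, 180.1 and 121 CPM and at 101, 129.7 and 62.5 CPM. Klrc1, an inhibitory partner of Klrd1, was highest in the control DC wound, at 99.9, 75.2 and 28.3 CPM, as were Fasl, the gene of a death ligand, at 48.6, 46.1 and 26.8 CPM, and the transcription factor gene Tbx21, at 21.1, 14.2 and 7.45 CPM. Perforin, the pore-forming protein encoded by Prf1, was scarce, with 2, 14 and 1 UMIs, and Ifng, the gene of interferon gamma, stood at 16.5, 39 and 7.45 CPM. Gzmc had 89.4 CPM in the blank hydrogel wound against 31.2 and 44.7, with 53 of its 60 UMIs in 1 cell. The chemokine gene Xcl1, with 14, 44 and 49 UMIs, the receptor gene Klrg1, with 18, 42 and 27, and the transcription factor gene Eomes, with 1, 4 and 5, were also highest in the blank hydrogel wound by CPM, at 73, 40.2 and 7.45 CPM in this order of genes.

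Of the 17 genes of the cytotoxic list, 3 of 11 with enough UMIs were at least 2-fold higher in the Ndrg2-KO DC than in the control DC wound, namely Gzma, Gzmb and Ifng, and 0 lower, with a median log2 ratio of 0.39 beside 0.08. Against the blank hydrogel wound, 6 of 11 were higher, namely Gzma, Gzmb, Nkg7, Klrk1, Klrc1 and Ifng, and Gzmc was lower, with a median of 1.05 beside 0.00. In the blank hydrogel against the control DC wound, Gzmc was higher and Nkg7 and Klrc1 lower among 9, with a median of -0.44 beside 0.07. Higher and lower shares of all counted genes were 3.69% and 2.44%, 7.29% and 1.51%, and 2.12% and 6.30% in this order. NK cell and innate lymphoid markers moved beside the cytotoxic genes, at 71.5, 403 and 273 CPM from 6, 6 and 7 of 8 genes, led by Tyrobp in the control DC wound and Fcer1g in the others. The NK cell receptor gene Ncr1 was at 0 in every library and Klra8 in the control DC and Ndrg2-KO DC wounds. Fcer1g and Tyrobp, which myeloid cells also express, were the genes of that list with enough UMIs, and both were at least 2-fold higher in the Ndrg2-KO DC and blank hydrogel wounds than in the control DC wound. Their part in the cytotoxic result was not tested.

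The gate of at least 2 of Gzma, Gzmb, Gzmk, Prf1, Nkg7 and Klrd1 held 37, 75 and 15 T cells, or 30.8%, 34.9% and 17.9%. At 1000 UMIs per cell the shares were 5.25% (1.86 to 10.6), 14.3% (10.1 to 19.9) and 4.20% (1.31 to 11.7). The first draw gave 0.833%, 15% and 4.76%, which places the control DC wound below the blank hydrogel wound, and no order between these is read. The Ndrg2-KO DC wound was the highest in each case. Its expected share overlapped both others slightly, and its first draw lay apart from that of the control DC wound. By all UMIs its interval of 28.5 to 41.7 overlapped the 22.7 to 39.9 of the control DC wound widely and lay above the 10.4 to 27.7 of the blank hydrogel wound. Fibroblast-like cells met the gate in 0%, and 15 of 16, 16 of 18 and 20 of 20 NK-like cells did.

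The carriers of these genes were both CD8 and other T cells. Of the 127 cells of the cytotoxic gate, 69 met the CD8 gate, 32 the CD4 gate and 42 the regulatory gate. Within the Ndrg2-KO DC wound, Ccl5 stood at 2416 CPM in the 64 CD8 gate cells and 325 CPM in the other 151, Nkg7 at 624 and 183 CPM, and Gzma at 639 and 58 CPM. Gzmb was less tied to CD8 cells, at 653 and 409.9 CPM, and was found in 35 and 40 cells. In the control DC and blank hydrogel wounds its level was lower inside the gate, at 84.6 against 144 CPM and 163 against 221 CPM, while its share of cells was higher there, at 28.6% against 19.6% and 37.5% against 28.9%. Without the cell with the most Gzmb of each class these levels were 56.6 (30.2 to 96.9) against 89.8 (70.6 to 113) CPM and 97.4 (35.7 to 212) against 139 (110.3 to 173) CPM, which overlap, so no direction is read. Ccl5 was also higher in CD8 gate cells of the other libraries, at 2372 against 314 CPM in the control DC wound and 1858 against 384 CPM in the blank hydrogel wound. Gzmb was instead frequent in cells with a UMI of Foxp3, with 5 of 9, 21 of 25 and 9 of 17 such cells against 21 of 111, 54 of 190 and 16 of 67 others. Its level in the Foxp3 cells was 419, 1304 and 614 CPM against 112, 304 and 112 CPM. Of the 84 Gzmb UMIs of the blank hydrogel Foxp3 cells, 50 lay in 1 cell, and without the cell with the most Gzmb of each class the levels were 303, 1106 and 265 CPM against 65.8, 262 and 88.8 CPM. Nkg7 was found in 0, 1 and 1 of the Foxp3 cells, so Gzmb was counted there mostly without this granule gene.

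**Figure D2:**
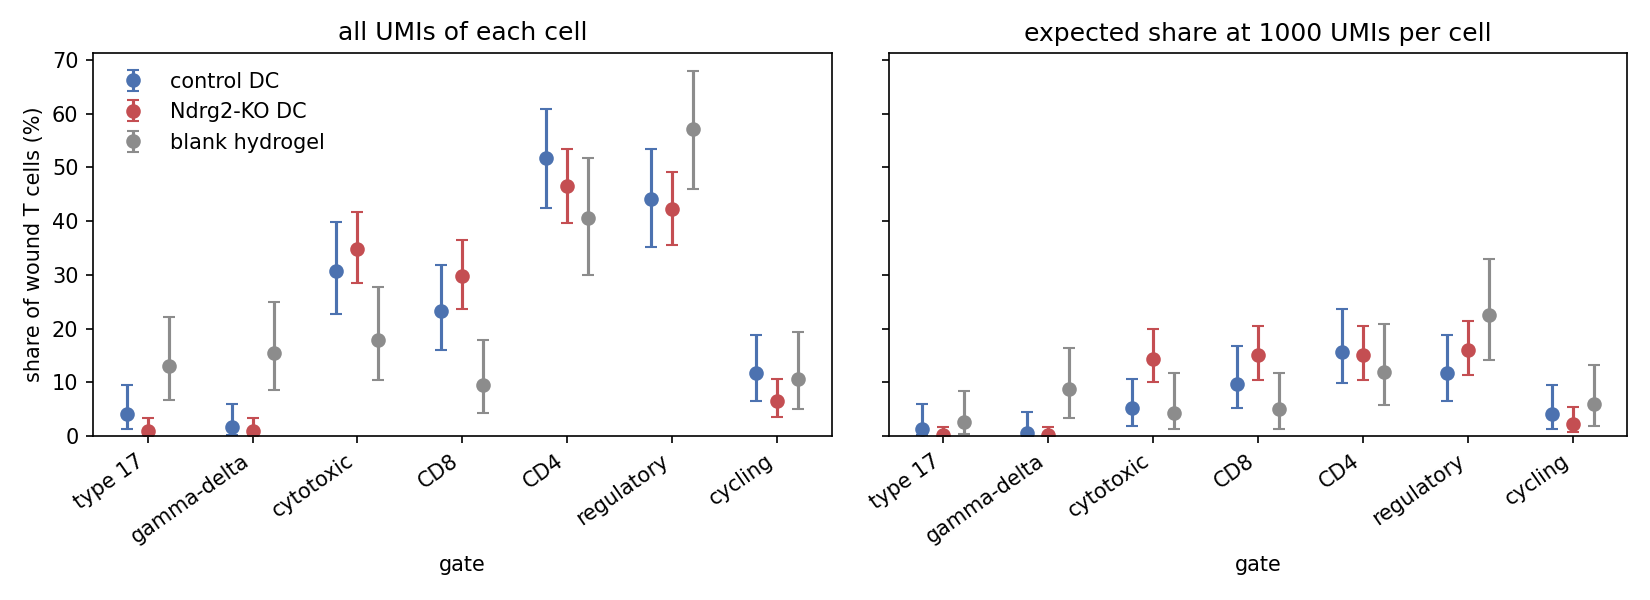
Share of wound T cells, in percent, that met each of 7 marker gates in the control DC, Ndrg2-KO DC and blank hydrogel wounds, from all UMIs of each cell (left) and as the expected share at 1000 UMIs per cell (right), with exact 95% intervals of counting error as bars. At equal depth the gamma-delta share is highest in the blank hydrogel wound at 8.76% and the cytotoxic share in the Ndrg2-KO DC wound at 14.3%.

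Of the regulatory T cell genes, Foxp3, Ctla4, Ikzf2 and Tnfrsf4 were at least 2-fold higher in the blank hydrogel than in the control DC wound, with the Ndrg2-KO DC wound between them. Foxp3, the transcription factor gene that defines regulatory T cells, had a UMI in 9, 25 and 17 T cells, which is 7.50%, 11.6% and 20.2%, against 0%, 0.217% and 0% of fibroblast-like cells. Its level was 34.8 (24.6 to 47.8), 66.6 (53.9 to 81.6) and 78.9 (59.1 to 103) CPM. The inhibitory receptor gene Ctla4 stood at 134, 206 and 323 CPM, Ikzf2, which encodes the transcription factor Helios, at 189, 267 and 475 CPM, and the costimulatory receptor gene Tnfrsf4 at 313, 535 and 631 CPM. The interleukin 2 receptor gene Il2ra was close in the 3 libraries, at 209.9, 253 and 252 CPM. Il10, an anti-inflammatory cytokine gene, had 1, 24 and 19 UMIs, and Tigit and Ccr8 had at most 12 UMIs each and were highest in the control DC wound, at 11, 3.55 and 8.94 CPM and at 11, 4.25 and 5.96 CPM.

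Of the 11 genes of the list, 8 had enough UMIs in each comparison. Between the blank hydrogel and control DC wounds, these 4 were at least 2-fold higher in the former and 0 lower, with a median log2 ratio of 0.86 beside 0.07. Of all counted genes, 2.12% were higher and 6.30% lower there. No gene of the list differed 2-fold in the Ndrg2-KO DC against the control DC wound, with a median of 0.49, or against the blank hydrogel wound, with a median of -0.24. Foxp3 itself had log2 ratios of 0.94 (0.38 to 1.52) and -0.24 (-0.74 to 0.27) there. Shares of all counted genes were 3.69% higher and 2.44% lower against the control DC wound, and 7.29% and 1.51% against the blank hydrogel wound. The gate of at least 2 of Foxp3, Il2ra, Ctla4, Ikzf2 and Tnfrsf4 held 53, 91 and 48 T cells, or 44.2%, 42.3% and 57.1%. At 1000 UMIs per cell the shares were 11.7% (6.53 to 18.8), 16% (11.3 to 21.5) and 22.5% (14.2 to 33), and the first draw gave 10.8%, 15.9% and 21.4%. These intervals overlap. Ikzf2 was also found in 7.50%, 8.91% and 11.2% of fibroblast-like cells, so this gene alone marks no T cell class.

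Cells with a Foxp3 UMI shared a set of genes that did not choose them. Tnfrsf4 was found in 8 of 9, 25 of 25 and 17 of 17 of these cells against 50.5%, 44.2% and 40.3% of the other T cells, and Ikzf2 in 9 of 9, 24 of 25 and 17 of 17 against 12.6%, 12.6% and 37.3%. Icos, found in the same numbers as Tnfrsf4, was also found in 80.2%, 78.4% and 77.6% of the other T cells, so its detection hardly set these cells apart. The interleukin 33 receptor gene Il1rl1, known from tissue regulatory T cells, was found in 6 of 9, 18 of 25 and 14 of 17 against 31.5%, 22.1% and 17.9%. Maf stood at 779.7, 634 and 504 CPM in them against 98.8, 118 and 258 CPM in the other T cells. Cxcr6 ran the other way, at 28.9, 44.1 and 36.5 CPM against 443, 408 and 402 CPM. A Cd4 UMI was found in 3 of 9, 15 of 25 and 8 of 17. All 51 Foxp3 cells met the regulatory gate, for which Foxp3 itself counts as 1 of the 2 genes needed. They were 51 of the 192 cells of that gate. Of the 17 gamma-delta cells, 11 met it too, without a Foxp3 UMI.

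**Figure D3:**
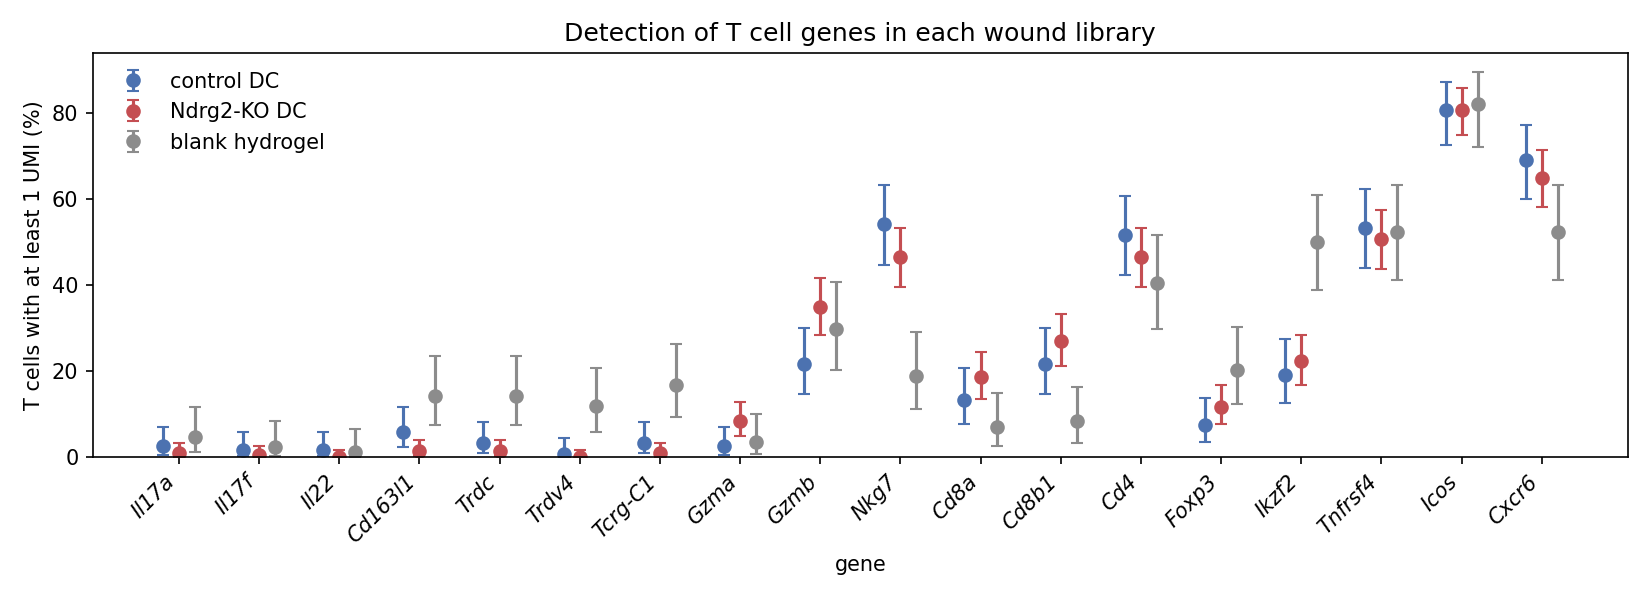
Share of wound T cells, in percent, with at least 1 UMI of each of 18 T cell genes in the control DC, Ndrg2-KO DC and blank hydrogel wounds, with exact 95% intervals of counting error as bars and no correction for depth. Icos is alike in the 3 libraries at 80.8%, 80.9% and 82.1%, while Trdc and Foxp3 are highest in the blank hydrogel wound at 14.3% and 20.2%.

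The type 2 cytokine genes Il4, Il5 and Il13 lay in at most 5 cells of a library, with single cells setting several levels, while Gata3 and Il1rl1 were widely carried. Gata3, the transcription factor gene of type 2 cells, was alike, at 178, 154 and 150.4 CPM in 61, 100 and 36 cells, and Il1rl1 stood at 150.3, 172 and 201 CPM in 41, 60 and 26 cells. Il4 had 1, 3 and 55 UMIs, 50 of them in 1 blank hydrogel cell, and Il5, the cytokine gene that acts on eosinophils, had 5, 97 and 0 UMIs, the 97 in 5 cells with at most 45 in 1. By UMIs alone, Il5 was at least 15.4-fold higher in the Ndrg2-KO DC than in the blank hydrogel wound. With 5 carriers among 215 T cells there and 84 T cells in the blank hydrogel wound, this is a difference of few cells. Areg, the gene of the growth factor amphiregulin, stood at 56.8, 28.4 and 127 CPM and was found in 7.50%, 6.98% and 21.4% of T cells against 8.33%, 6.96% and 6.52% of the deeper fibroblast-like cells. Of the 8 type 2 genes, Il5 was higher and Areg lower among 4 with enough UMIs in the Ndrg2-KO DC against the control DC wound, with a median of -0.01. In the blank hydrogel against the control DC wound, Il4 and Areg were higher among 4, with a median of 0.79, and in the Ndrg2-KO DC against the blank hydrogel wound Il5 was higher and Il4 and Areg lower among 5, with a median of -0.23. Type 1 genes showed 1 of 5 higher in the Ndrg2-KO DC against the control DC wound, namely Ifng, with a median of 0.44. Against the blank hydrogel wound, Ifng and Il12rb2, a receptor gene for interleukin 12, were higher among 5, with a median of 0.79. Il12rb2 stood at 53.2, 46.8 and 10.4 CPM and was the 1 of 3 type 1 genes that was lower in the blank hydrogel than in the control DC wound, where the median was -0.34. The higher and lower shares of all counted genes were 3.69% and 2.44%, 2.12% and 6.30%, and 7.29% and 1.51%. They follow the order of the type 2 comparisons. With so few genes per list, no trait of either list is read.

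Of the genes of recirculation and of tissue residence, Ccr7, Lef1 and Itga1 passed 2-fold in a comparison and the other tested genes did not. Over all counted genes, 3.69% were higher and 2.44% lower in the Ndrg2-KO DC against the control DC wound. In the blank hydrogel against the control DC wound these shares were 2.12% and 6.30%. In the Ndrg2-KO DC against the blank hydrogel wound they were 7.29% and 1.51%. With so few genes per list, no trait of either list is read. Il7r, the receptor gene for a survival cytokine, stood at 396, 417 and 634 CPM, and S1pr1, which guides exit from tissue, at 137, 183 and 197 CPM. Ccr7, the lymph node homing receptor gene, stood at 124, 169 and 269.5 CPM with 60, 54 and 103 UMIs in 1 cell of each library. Among naive and recirculating genes, 0 of 7 differed 2-fold in the Ndrg2-KO DC against either other wound, with medians of 0.41 and 0.06, and in the blank hydrogel against the control DC wound Ccr7 was higher and Lef1 lower among 6, with a median of 0.47. Of the residence genes, Cd69, which holds T cells in tissue, stood at 126, 145 and 156 CPM and the integrin gene Itgae at 68.7, 93.6 and 116 CPM. Itga1, a collagen-binding integrin gene, stood at 13.7, 38.3 and 7.45 CPM and was the 1 of 7 residence genes higher in the Ndrg2-KO DC wound against both others, with medians of 0.14 and 0.07. None of 6 differed in the blank hydrogel against the control DC wound, with a median of 0.06.

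Among checkpoint and costimulation genes, Pdcd1 and Tox were at least 2-fold higher in the blank hydrogel wound than in either other wound. Pdcd1 stood at 88, 77.3 and 235 CPM in 30, 52 and 38 cells, and Tox, a transcription factor gene of chronically stimulated T cells, at 22, 33.3 and 74.5 CPM. In the blank hydrogel wound, Pdcd1 stood at 659 CPM in the 13 gamma-delta gate cells and 152 CPM in the other 71 T cells. The latter level is less than 2-fold above those of the other wounds. Tox reached 50 UMIs in the blank hydrogel wound alone, so it entered only through that wound. Against the control DC wound, 4 of 6 genes of the list were higher in the blank hydrogel wound, namely Pdcd1, Ctla4, Tox and Tnfrsf4, and Tnfsf11 was lower, with a median of 1.14 beside 0.07. Tnfsf11, a cytokine gene of the tumour necrosis factor family, stood at 91.7, 54.6 and 43.2 CPM, the inhibitory receptor gene Lag3 at 11, 24.8 and 10.4 CPM and Cd40lg at 25.7, 44 and 40.2 CPM. Ctla4 and Tnfrsf4 are also on the regulatory list. The Ndrg2-KO DC wound had Pdcd1 and Tox lower among 7 against the blank hydrogel wound, with a median of -0.26, and 0 of 6 past 2-fold against the control DC wound, with a median of 0.29. Of the chemokine receptors, Cxcr4, which retains cells in tissue, stood at 201, 138 and 453 CPM. Cxcr4 and Ccr7 were higher among 5 in the blank hydrogel against the control DC wound, with a median of -0.15, Cxcr4 was lower among 6 in the Ndrg2-KO DC against the blank hydrogel wound, with a median of 0.05, and 0 of 6 differed in the Ndrg2-KO DC against the control DC wound, with a median of 0.16. Higher and lower shares of all counted genes were 2.12% and 6.30%, 7.29% and 1.51%, and 3.69% and 2.44% in this order. With so few receptors, no trait of the receptor list is read.

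Several genes of repair factors were set by few cells. Tgfb1, a growth factor gene that drives matrix formation, was the steady one, at 226, 186 and 322 CPM. Vegfa, which promotes vessel growth, stood at 76.1, 9.93 and 8.94 CPM, with 58 of the 83 control DC UMIs in 1 cell, and Csf2 had 83, 84 and 1 UMIs, with 32 and 51 in 1 cell of the control DC and Ndrg2-KO DC wounds. Against the control DC wound, 4 of 6 genes with enough UMIs were lower in the Ndrg2-KO DC wound, namely Areg, Il17a, Il22 and Vegfa, with a median of -1.97. For the blank hydrogel against the control DC wound, Areg was higher and Il22, Csf2 and Vegfa lower among 6, with a median of -1.61. In the Ndrg2-KO DC against the blank hydrogel wound, Csf2 was higher and Areg and Il17a lower among 4, with a median of -1.48. All counted genes gave higher and lower shares of 3.69% and 2.44%, 2.12% and 6.30%, and 7.29% and 1.51% in this order.

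Of the 6 proliferation genes, all but Ube2c were lowest in the Ndrg2-KO DC wound. Mki67, a gene of dividing cells, stood at 95.3, 53.2 and 167 CPM, Top2a, which untangles DNA in division, at 99, 44.7 and 168 CPM, and Stmn1, a regulator of microtubules, at 214, 108 and 337 CPM. Against the blank hydrogel wound, 5 of 6 were at least 2-fold lower in the Ndrg2-KO DC wound, with Ube2c, at 45.8, 62.4 and 53.6 CPM, the exception and a median log2 ratio of -1.64. Against the control DC wound, Top2a and Pclaf were lower, with a median of -0.91, and the blank hydrogel wound had 0 of 6 past 2-fold against the control DC wound, with a median of 0.76. All counted genes gave higher and lower shares of 7.29% and 1.51%, 3.69% and 2.44%, and 2.12% and 6.30% in this order. The gate of at least 2 of Mki67, Top2a, Birc5, Pclaf and Ube2c held 14, 14 and 9 T cells, or 11.7%, 6.51% and 10.7%, and 4.06% (1.37 to 9.46), 2.24% (0.763 to 5.37) and 5.97% (1.96 to 13.3) at 1000 UMIs per cell, where the first draw gave 3.33%, 2.34% and 5.95%. Fibroblast-like cells met it in 4.17%, 13.5% and 9.01%, and the T cells in the gate were deep, at medians of 16562, 14038 and 17167 UMIs. Of the 37 cells in the gate, 30 also met the regulatory gate.

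Of the 12 immediate early and heat shock genes, which also rise during tissue digestion, 4 were at least 2-fold lower in the blank hydrogel than in the control DC wound and 8 were not. Hspa1a, a chaperone gene, stood at 464, 237 and 64 CPM and Fosb at 392, 214 and 92.3 CPM. These genes, Fosb, Egr1, Hspa1a and Hspa1b, were also the 4 of 12 that were higher in the Ndrg2-KO DC against the blank hydrogel wound, with list medians of -0.36 and 0.76 in the 2 comparisons, and 0 of 12 differed in the Ndrg2-KO DC against the control DC wound, with a median of -0.32. Higher and lower shares of all counted genes were 2.12% and 6.30%, 7.29% and 1.51%, and 3.69% and 2.44% in this order. Single cells held 179 and 132 of the Egr1 UMIs of the control DC and Ndrg2-KO DC wounds and 216 and 182 of the Hspa1a UMIs. The part of tissue handling in these values was not tested.

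Of the interferon-stimulated genes, 4 were at least 2-fold higher in the Ndrg2-KO DC than in the control DC wound. Isg15, a ubiquitin-like protein gene, stood at 48.6, 155 and 70 CPM, and Ifi27l2a at 513, 1205 and 950.1 CPM. Against the control DC wound, 4 of 6 genes with enough UMIs were higher in the Ndrg2-KO DC wound, among them Isg15, Ifit1 and Ifi27l2a, and 0 lower, with a median log2 ratio of 1.12 beside 0.08. Isg15 was the 1 of 6 higher against the blank hydrogel wound, with a median of 0.63, and 0 of 4 differed in the blank hydrogel against the control DC wound, with a median of 0.49. The other kept wound cells held the same order, with Isg15 at 81.1, 220.2 and 139 CPM and Ifi27l2a at 503, 1149 and 613 CPM. The difference of these 2 genes was thus seen in the other wound cells too and is not one of T cells alone.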

How the data were processed

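The authors deposited UMI counts per gene and cell barcode of 10x 3′ libraries, made with Cell Ranger 6.0.0 per the file headers and not normalized. The submitters' processing notes name Cell Ranger, Seurat 3.1.1 and mm9, while the study's methods name another Cell Ranger version and mm10. The 3 libraries of cultured DCs were not used, and the 10 hashtag antibodies in the tables held 0 UMIs. Of 31053 Ensembl gene IDs, 30934 matched GENCODE M21 (GRCm38), from which positions were taken.

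The members and lists were chosen with earlier results of these data known. Named genes were all genes of 27 lists, the genes that chose the cells, in each comparison the 8 genes that rose most and the 8 that fell most, given 50 or more UMIs in either library and leaving out mitochondrial and ribosomal protein genes, the 20 genes highest against other wound cells, and the 8 genes most like Il17a among those with at least 30 UMIs in T cells with an Il17a UMI. Some genes of the lists and gates are not reported here by name and are included in the counts. Fibroblast-like cells had at least 20 UMIs of Col1a1, Col1a2, Col3a1 and Dcn and none of Ptprc or a Cd3 gene. Neutrophil-like cells had at least 20 of S100a8 and S100a9, a UMI of Csf3r or Cxcr2 and no Cd3 UMI, and NK-like cells had UMIs of at least 2 of Ncr1, Klrb1c, Klre1, Klra8 and Eomes, no Cd3 UMI and fewer than 5 of Lyz2.

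UMIs were summed over the T cells of each library and scaled to CPM. With 1 library per condition, no test was made. Intervals were Poisson for CPM, Clopper-Pearson for shares and conditional binomial for ratios. At the depth of 671511 to 1410433 UMIs, 1 UMI equals 0.709 to 1.49 CPM. Shares at 1000 UMIs per cell are exact expectations over all draws, with the interval of the rounded expected count. They replaced the planned single draw after its values were seen. Doublets were kept and scored with Scrublet. The code was tested on simulated data. Python 3.11.15, NumPy 2.4.6, pandas 2.3.3, SciPy 1.17.1, matplotlib 3.10.9 and scanpy 1.11.5 were used. Alternatives changed the cell filters, doublets, the numbers of Cd3 genes and Lyz2 UMIs, the depth and number of genes of the gates, the scaling, the weight of cells and the minimum of UMIs. Alternatives added after seeing the data left out T cells with at least 20 UMIs of another cell type, left out the cell with the most UMIs of a gene, and used 1 random draw.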

Additional observations from a re-analysis of the deposited data

Results flagged for a closer look

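Il17a counts outside the chosen cells were largest in the Ndrg2-KO DC wound, where kept cells without any Cd3 UMI held 416 Il17a UMIs, 415 of them in 1 cell, against 3 in the T cells. This signal lies outside the T cells described above and exceeds the 2 UMIs of the same kind of cells in the control DC wound. It rests on 1 cell, so it does not tell how common such cells were.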

How the results depend on the processing

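Of 360 alternative values, 265 stayed within their interval or within 1.5 times the count and 95 moved. The order of the libraries held in 9 of 9 alternatives for the T cell shares, 15 of 15 for the gamma-delta, 14 of 15 for the regulatory and type 17 and 13 of 15 for the cytotoxic gate, and 9 of 13 for Il17a. The highest library held in 15 of 15 for the cytotoxic, gamma-delta and regulatory gates, in 14 of 15 for the type 17 gate (not with at least 3 genes) and in 10 of 13 for Il17a (not with no Lyz2 UMI, the mean over cells, or without the leading cell). With 1 library per condition, counting error is the only error known, and gates read few UMIs at 1000 per cell. The cause of each move was not tested, beyond what an alternative's own construction fixes. Values that moved follow, apart from 11 of 15 Gzmb levels without the cell with the most Gzmb, all lower, for the control DC, Ndrg2-KO DC and blank hydrogel wounds.

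T cell shares were 4.62% and 2.91% (control DC, Ndrg2-KO DC) with at least 300 UMIs in place of genes, 4.43% and 2.87% with all barcodes, 4.37% and 3.35% (Ndrg2-KO DC, blank hydrogel) with at least 1 Cd3 gene, 4.98%, 2.66% and 1.82% with all 3, and 2.92% and 1.85% (Ndrg2-KO DC, blank hydrogel) with no Lyz2 UMI.

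Il17a CPM in the control DC and blank hydrogel wounds was 4.55 and 1.58 without the highest Scrublet scores, 239 and 196 with at least 1 Cd3 gene, 4.58 and 354 with no Lyz2 UMI, 360.2 and 339 without mitochondrial and ribosomal protein genes, and 5.58 and 48.3 without the cell with the most UMIs. In the control DC wound it was 312 with all 3 Cd3 genes, 361 without T cells holding at least 20 UMIs of another type and 156 as a mean over cells, and in the blank hydrogel wound 201 with no limit on Lyz2.

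Cytotoxic shares were 0.833% (control DC) in 1 random draw, which was the planned measure and was replaced by the expectation after it was seen, 7.70% (Ndrg2-KO DC) at 500 UMIs, 11.6% and 22.6% (control DC, Ndrg2-KO DC) at 2000 UMIs, 30.8%, 34.9% and 17.9% without thinning, 32.6%, 44.2% and 24% with at least 1 gene and 0.577%, 5.48% and 1.01% with at least 3. Regulatory shares were 5.93% and 9.58% (control DC, Ndrg2-KO DC) at 500 UMIs, 20.7% and 24.6% at 2000, 44.2%, 42.3% and 57.1% without thinning, 42%, 43.7% and 56.6% with at least 1 gene and 4.49%, 7.75% and 13.8% with at least 3. CD8 shares were 5% and 1.19% (control DC, blank hydrogel) in 1 random draw. In the blank hydrogel wound, the gamma-delta share was 2.87% with at least 3 genes, and the type 17 share 13.1% without thinning, 14.4% with at least 1 gene and 0.0676% with at least 3.

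Genes higher in the Ndrg2-KO DC against the blank hydrogel wound numbered 99 without the highest Scrublet scores, 91 with no Lyz2 UMI, 76 without T cells holding RNA of another type, and 574 and 131 with a minimum of 20 and 100 UMIs, and genes lower 185 and 24 with these minimums. Against the control DC wound, genes higher in the Ndrg2-KO DC wound numbered 83 without the highest Scrublet scores, 208 with at least 1 Cd3 gene, 76 with no Lyz2 UMI, 211 with no Lyz2 limit, 45 without T cells holding RNA of another type, and 312 and 63 with minimums of 20 and 100 UMIs. Genes lower there numbered 43 without the highest Scrublet scores, 154 with at least 1 Cd3 gene, 30 without T cells holding RNA of another type, and 219 and 48 with the same minimums. In the blank hydrogel against the control DC wound, genes higher numbered 117 with at least 1 Cd3 gene, 135 with no Lyz2 limit, and 194 and 24 with the same minimums, and genes lower 70 without the highest Scrublet scores, 51 without T cells holding RNA of another type, and 439 and 95 with the same minimums.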
